A study of Mus musculus with 9 samples.

Results

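The hypoxia and HIF target genes described here are 10 genes picked by symbol: Hif1a, Vegfa, Egln1, Egln3, Bnip3, Ndrg1, P4ha1, Mxi1, Kdm3a and Higd1a. All 10 were among the 40879 symbols of the deposited tables, and all 10 were among the 18245 genes left after low counts were removed. RNA of spinal cord tissue from male mice was sequenced, with 3 libraries in each of the groups labelled SNI+LDN193189, SNI and sham. SNI is the usual name for spared nerve injury, a cut through some branches of the sciatic nerve that leaves another intact. LDN193189 is a small molecule that blocks the kinases of BMP receptors, among them ACVR1, the receptor in the series title. Its dose, route and vehicle, the strain and age of the mice, the time after surgery and the part of the cord were not in the labels. The replicates are called separate biosamples, with no word on separate animals, so p-values measure the spread between these samples only.

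HIF is a transcription factor made of an oxygen-regulated alpha subunit and the stable subunit ARNT. In cells with enough oxygen, prolyl hydroxylases mark the alpha subunit, the VHL ubiquitin ligase binds it, and the proteasome destroys it. When oxygen is short the alpha subunit survives, enters the nucleus and switches on genes for glucose use, blood vessel growth, mitochondrial turnover and collagen modification, and among them genes of its own hydroxylases. This control acts on the protein, so the RNA of Hif1a does not measure HIF activity, and the target genes are read out beside it.

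HIF binds a short core in DNA, ACGTG or GCGTG, and the bases before the transcription start were searched for it to show how the members' promoters look. The search covered the 250 bases before each start listed by RefSeq (build GRCm38.p6), on both strands, with overlapping matches counted. Windows were found for 9 members, Ndrg1 being the member without one. In the first window of each member, 7 of 9 held at least 1 of the cores, beside 38.6% of the first windows of all 27025 genes, and 5 of 9 held ACGTG, beside 16.6%. The first windows of Vegfa and Mxi1 held neither core, though later windows of both held ACGTG. The members were picked as hypoxia and HIF target genes, so a share above that of all genes is no finding of these data. A match describes letters and is no evidence of binding. The promoters of 4 members are shown, chosen for the results below: Bnip3 for the most matches, Egln1 as an oxygen sensor gene, P4ha1 as the member that varied most between libraries, and Higd1a as the member with the smallest p across the 3 groups. Capitals mark the cores on either strand, CACGT and CACGC being those read from the opposite strand, and the transcription start follows the last base.
Bnip3: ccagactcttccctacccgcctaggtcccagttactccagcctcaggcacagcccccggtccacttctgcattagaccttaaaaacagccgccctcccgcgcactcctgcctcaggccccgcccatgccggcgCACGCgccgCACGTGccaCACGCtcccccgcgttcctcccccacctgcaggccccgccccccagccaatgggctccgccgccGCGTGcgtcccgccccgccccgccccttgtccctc
Egln1: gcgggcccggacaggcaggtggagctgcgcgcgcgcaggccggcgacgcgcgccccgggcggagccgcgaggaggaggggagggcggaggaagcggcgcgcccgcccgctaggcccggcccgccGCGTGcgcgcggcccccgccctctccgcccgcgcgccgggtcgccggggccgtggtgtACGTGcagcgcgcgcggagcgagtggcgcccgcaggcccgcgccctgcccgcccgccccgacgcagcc
P4ha1: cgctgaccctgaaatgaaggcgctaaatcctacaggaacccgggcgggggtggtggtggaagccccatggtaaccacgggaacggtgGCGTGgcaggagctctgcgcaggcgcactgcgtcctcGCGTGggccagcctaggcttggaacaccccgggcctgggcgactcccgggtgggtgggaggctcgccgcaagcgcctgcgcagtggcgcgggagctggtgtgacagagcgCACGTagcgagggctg
Higd1a: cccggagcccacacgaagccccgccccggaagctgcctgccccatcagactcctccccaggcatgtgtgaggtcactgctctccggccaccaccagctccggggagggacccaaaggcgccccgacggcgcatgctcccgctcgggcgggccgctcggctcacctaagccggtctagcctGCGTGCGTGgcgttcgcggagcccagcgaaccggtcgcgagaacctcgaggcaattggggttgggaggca
The Bnip3 window (chr7:138909507-138909756, minus strand) held 5 matches, and a palindromic CACGTG among them counts as a pair. The Egln1 window (chr8:124949255-124949504, minus strand) held 1 of each core, the P4ha1 window (chr10:59323046-59323295, plus strand) held 1 ACGTG and 2 GCGTG, and the Higd1a window (chr9:121857797-121858046, minus strand) held 2 overlapping GCGTG. The gene places given below are from GENCODE and differ in part from the RefSeq starts. By those places Higd1a reaches 121858362, so its window lies inside the gene, and the Egln1 and Bnip3 windows lie partly inside theirs.

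The libraries held 33432776 to 37190467 counts. Markers of cord cells were present throughout: the summed level of 9 neuronal markers was 8049 to 8727 CPM in SNI+LDN193189, 8138 to 8881 in SNI and 7520 to 8674 in sham (CPM, the library-scaled count of a gene). Of the markers that define cord glia, Aqp4 and P2ry12 were listed at 0 in all libraries, while the other 8 astrocyte and 7 microglial markers were measured. Markers of tissue outside the cord differed between libraries. The 9 Schwann cell and nerve root markers summed to 551 to 1421 CPM in SNI+LDN193189, 183 to 649 in SNI and 631 to 4726 in sham, with the highest value in sham replicate 3. Sham replicate 1 stood apart in its 8 skeletal muscle markers, with 608 CPM beside at most 14.2 in the other libraries, and sham replicate 2 in its 7 sensory ganglion markers, with 155 CPM beside at most 102. Sprr1a, a gene switched on in injured neurons, had 6.38, 17.4 and 0.688 CPM in SNI+LDN193189, 6.62, 15.1 and 23.0 CPM in SNI and 0.161, 0.235 and 0.215 CPM in sham, so SNI+LDN193189 replicate 3 lay far below the other 5 injured libraries. Without that library 1 of the 30 log2 fold changes of the members turned, that of Mxi1 in SNI+LDN193189 against sham. In whole tissue, fewer cells of a type and less RNA per cell cannot be told apart.

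By level per gene length, Ndrg1 was the most abundant member. It had 132 ± 31.4 FPKM (SD over 9 libraries), a read count scaled by gene length and library total, and a range of 108 to 208. Bnip3 followed with 80.2 ± 4.66 FPKM, Higd1a with 40.3 ± 2.10, Egln1 with 27.3 ± 1.21 and Vegfa with 23.3 ± 3.81. P4ha1 had 14.1 ± 3.17 FPKM, Mxi1 11.6 ± 0.739, Kdm3a 8.16 ± 0.792, Egln3 5.55 ± 0.337 and Hif1a 5.19 ± 0.309. The order was clear at the top, since Ndrg1, Bnip3, Higd1a and Egln1 did not overlap between libraries. Further down, Egln1 and Vegfa, Vegfa and P4ha1, P4ha1 and Mxi1, and Egln3 and Hif1a overlapped and so were not ordered beyond their spread.

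None of the 10 members passed the test in any comparison between the groups. With edgeR's quasi-likelihood test and Benjamini-Hochberg adjustment over all genes, 0 of 10 passed in SNI against sham, where 0% of all genes tested did. In SNI+LDN193189 against SNI 0 of 10 passed, beside 0.00548% of all genes, and in SNI+LDN193189 against sham 0 of 10 passed, beside 0.0164%. The joint test of the 3 groups also passed 0 of 10, beside 0.00548% of all genes. At an unadjusted p under 0.05, SNI against sham held 1 member, Hif1a (5.33% of all genes). At that level SNI+LDN193189 differed from SNI in 3 members, Egln1, Kdm3a and Higd1a (3.88%), and from sham in 2, Bnip3 and Higd1a (8.56%), and the joint test held 2, Kdm3a and Higd1a (5.94%). DESeq2 and limma-voom passed 0 members in each of these tests. Between SNI and sham the log2 fold change was above 0 for 3 members (50.1% of all genes). For SNI+LDN193189 it was above 0 for 8 members when set against SNI (49.8%) and for 7 when set against sham (48%). The members' medians were -0.03 in the first of these comparisons, 0.10 in the second and 0.05 in the third, beside 0.00048, -0.00075 and -0.0069 over all genes tested. The median of -0.03 turned to 0.01 without SNI replicate 2. The comparisons share libraries in pairs, so their values are not independent of each other. The number of all genes called rested on single libraries: 38 were called in SNI against sham without sham replicate 1, and 17 in SNI+LDN193189 against sham without SNI replicate 3, with 0 members in each.

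**Figure D1:**
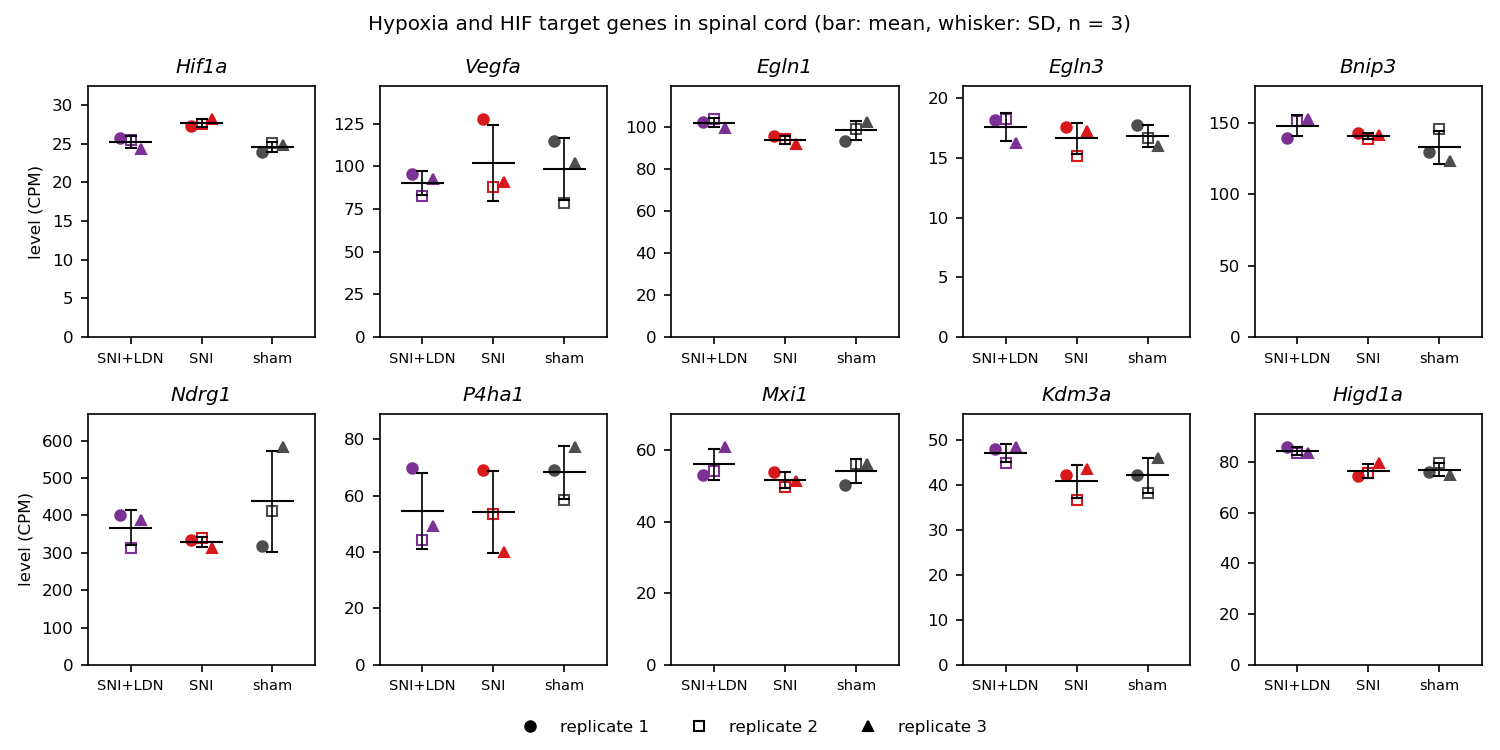
Level of each member in CPM (vertical axes from 0) in the 3 libraries of SNI+LDN193189, SNI and sham, with the mean as a bar and the SD as a whisker (n = 3 each). Hif1a stood higher in all SNI libraries than in the others, Higd1a stood higher in all SNI+LDN193189 libraries, and Ndrg1, P4ha1 and Vegfa spread widely within groups.

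The oxygen-regulated subunit gene Hif1a (ENSMUSG00000021109.13, chromosome 12, 73901375 to 73947530 in GRCm38) had 27.3, 27.5 and 28.2 CPM in SNI, against 23.9, 25.1 and 24.8 CPM in sham. All 3 SNI libraries stood above all sham libraries, and Hif1a was the 1 member of 10 whose groups did not overlap in SNI against sham, beside 8.87% of all genes (4.45% higher and 4.43% lower). Its log2 fold change was 0.17 (SE 0.070, 95% interval 0.021 to 0.320) and the edgeR adjusted p was 0.927. In SNI+LDN193189 Hif1a had 25.8, 25.5 and 24.3 CPM, below every SNI library and overlapping with sham. SNI+LDN193189 against SNI gave -0.14 (SE 0.070, adjusted p = 0.9996), and SNI+LDN193189 against sham 0.04 (SE 0.070, adjusted p = 0.913). Within groups the Hif1a libraries lay close together: the within-group SD of log2 CPM was 0.037. Of the 10457 genes with a mean of at least 10 CPM, 2.62% had a smaller one. With 848 to 1022 counts per library and 3 libraries per group, so small an SD is itself uncertain and was not taken as a trait of the gene. The SE of 0.070 comes from the fit and not from this SD. Leaving out each library in turn kept SNI against sham between 0.15 and 0.19. The annotated Hif1a gene overlaps the antisense gene Gm15283, which averaged 2.73 CPM, and the same-strand gene Gm49321. Reads in the overlaps cannot be told apart, since the counting setting is not given in these sources.

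The prolyl hydroxylase genes Egln1 and Egln3, whose enzymes sense oxygen and mark the HIF alpha subunit, differed in their spread. Within groups the SD of log2 CPM was 0.046 for Egln1 and 0.096 for Egln3, beside a median of 0.089 over the genes with a mean of at least 10 CPM. Egln1 (ENSMUSG00000031987.6, chromosome 8, 124908587 to 124949324) had 102, 104 and 99.6 CPM in SNI+LDN193189, 95.5, 94.5 and 91.8 CPM in SNI and 93.4, 99.1 and 102 CPM in sham. Every SNI+LDN193189 library was above every SNI library, and sham overlapped with both groups. SNI+LDN193189 against SNI gave a log2 fold change of 0.12 (SE 0.052, 95% interval 0.0065 to 0.228, edgeR adjusted p = 0.9996), and SNI against sham gave -0.07 (SE 0.052, adjusted p = 0.955). Egln3, a hydroxylase gene known as a strong HIF target, had 18.2, 18.3 and 16.3 CPM in SNI+LDN193189, 17.6, 15.2 and 17.2 CPM in SNI and 17.8, 16.7 and 16.0 CPM in sham. Its groups overlapped in all comparisons. In SNI against sham Egln3 had a log2 fold change of -0.02 (SE 0.095, 95% interval -0.220 to 0.185, edgeR adjusted p = 0.997), which turned to 0.04 without SNI replicate 2 and to 0.02 without sham replicate 1. SNI+LDN193189 against SNI gave 0.08 (SE 0.095, 95% interval -0.123 to 0.282, adjusted p = 0.9996).

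Higd1a and Bnip3 are the members whose proteins act at mitochondria. Higd1a (ENSMUSG00000038412.8, chromosome 9, 121848563 to 121858362), which encodes a protein of the mitochondrial inner membrane, had 86.1, 83.4 and 83.6 CPM in SNI+LDN193189. It had 74.5, 75.6 and 79.7 CPM in SNI and 76.0, 79.8 and 74.9 CPM in sham. All 3 SNI+LDN193189 libraries exceeded the 6 others, and SNI and sham overlapped. For Higd1a the log2 fold change was 0.14 (SE 0.052, 95% interval 0.028 to 0.251, edgeR adjusted p = 0.9996) against SNI and 0.13 (SE 0.052, 95% interval 0.023 to 0.246, adjusted p = 0.547) against sham. Higd1a was the 1 member whose groups did not overlap in SNI+LDN193189 against sham, beside 13.1% of all genes (6.81% higher and 6.31% lower). In SNI+LDN193189 against SNI 4 members did not overlap, beside 11.3% of all genes. Of these 4, Higd1a, Kdm3a and Egln1 were higher, beside 5.71% of all genes, and Hif1a was lower, beside 5.55%. Between SNI and sham Higd1a differed by -0.0056 (SE 0.052), a value that turned above 0 without SNI replicate 1 (0.014) and without sham replicate 2 (0.022), and lay next to 0 without SNI replicate 2.

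Bnip3 (ENSMUSG00000078566.8, chromosome 7, 138890836 to 138909519), a receptor that marks mitochondria for autophagy, had 139, 151 and 153 CPM in SNI+LDN193189, 143, 138 and 141 CPM in SNI and 130, 146 and 123 CPM in sham. The groups overlapped in every comparison, with the widest spread in sham. SNI against sham gave 0.08 (SE 0.062, edgeR adjusted p = 0.944) and SNI+LDN193189 against SNI 0.07 (SE 0.062, adjusted p = 0.9996). SNI+LDN193189 against sham gave a log2 fold change of 0.15 (SE 0.062, 95% interval 0.022 to 0.285, edgeR adjusted p = 0.547). Without sham replicate 2, the sham library with the most Bnip3, that value was 0.23 with an adjusted p of 0.158, the lowest of any member under any of the 23 alternatives.

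Of the members that act on chromatin and transcription, Kdm3a (ENSMUSG00000053470.13, chromosome 6, 71588972 to 71632990), a demethylase of histone H3 lysine 9, had 47.8, 44.8 and 48.5 CPM in SNI+LDN193189, 42.2, 36.6 and 43.4 CPM in SNI and 42.0, 38.2 and 45.9 CPM in sham. SNI+LDN193189 lay above SNI without overlap, while 1 sham library reached into its range. Kdm3a had a log2 fold change of 0.21 (SE 0.080, 95% interval 0.037 to 0.378, edgeR adjusted p = 0.9996) against SNI and 0.16 (SE 0.080, adjusted p = 0.599) against sham. In SNI against sham it had -0.05 (SE 0.080, adjusted p = 0.987), which turned to 0.02 without SNI replicate 2 and likewise without sham replicate 3. Mxi1, a MAX partner that opposes MYC, had 53.0, 54.1 and 60.9 CPM in SNI+LDN193189, 54.0, 49.6 and 51.2 CPM in SNI and 50.2, 56.0 and 56.2 CPM in sham. Its groups overlapped throughout, and its log2 fold change in SNI+LDN193189 against SNI was 0.12 (SE 0.069, 95% interval -0.028 to 0.266, edgeR adjusted p = 0.9996). Against sham the value for SNI+LDN193189 was 0.05, and it turned to -0.02 without SNI+LDN193189 replicate 3 and to -0.003 without sham replicate 1.

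**Figure D2:**
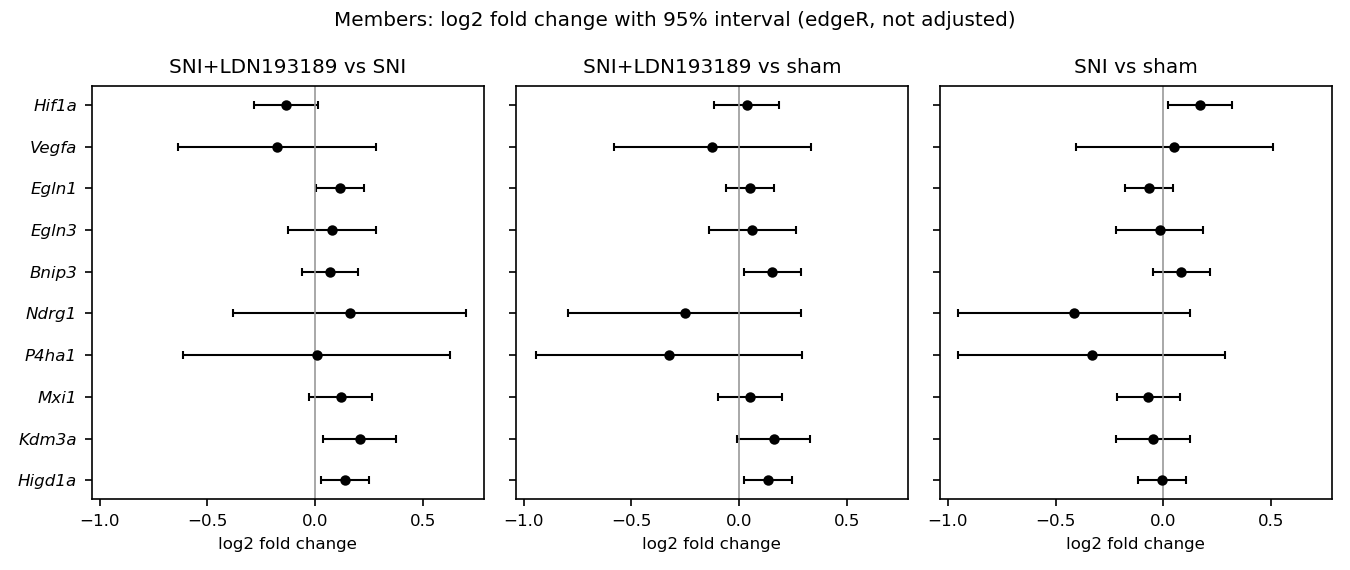
Log2 fold change of each member (points) with its 95% interval (bars, edgeR, not adjusted for the number of genes) for SNI+LDN193189 against SNI, SNI+LDN193189 against sham and SNI against sham. The intervals of Vegfa, Ndrg1 and P4ha1 are the widest, and the point estimates lie between -0.41 and 0.21.

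Wide variation between libraries of the same group marked 3 members. The highest library exceeded the lowest 1.93-fold for P4ha1, 1.87-fold for Ndrg1 and 1.63-fold for Vegfa, and the median over the 10457 genes with a mean of at least 10 CPM was 1.22-fold. Their within-group SDs of log2 CPM were larger than those of 98.3%, 97.6% and 96.6% of these genes. The other 7 members had a ratio of 1.13 to 1.32. In all 3 comparisons the 95% intervals of the other 7 members lay between -0.285 and 0.378 on the log2 scale, while those of P4ha1, Ndrg1 and Vegfa ran from -0.954 at their lowest to 0.700 at their highest.

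**Figure D3:**
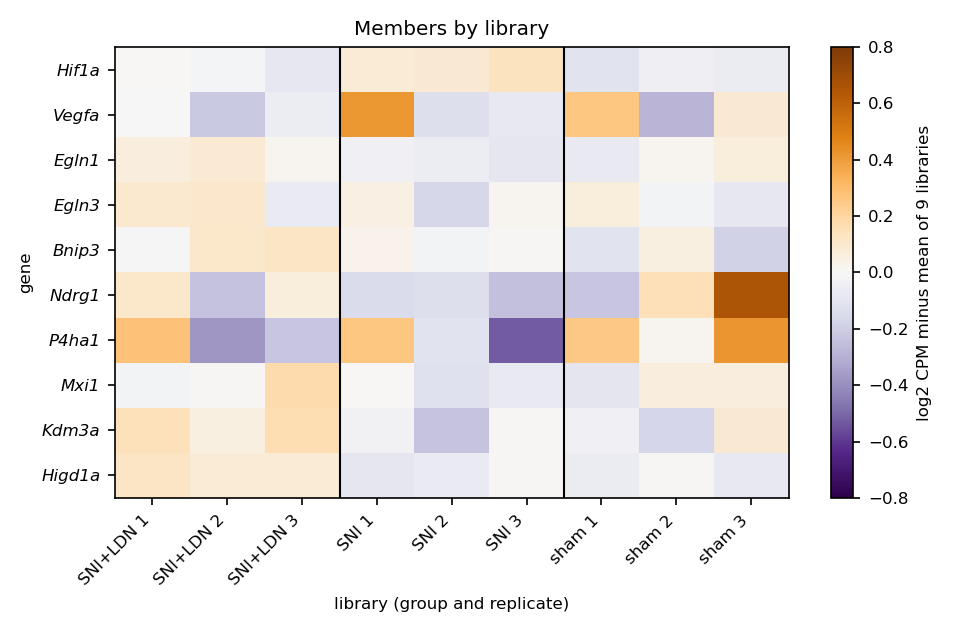
Log2 CPM of each member (rows) in each library (columns, grouped as SNI+LDN193189, SNI and sham), as the difference from the member's mean over the 9 libraries. P4ha1 and Vegfa change from library to library within each group, Ndrg1 stands out in sham replicate 3, and the other rows stay pale.

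P4ha1 (ENSMUSG00000019916.14, chromosome 10, 59323296 to 59373304) encodes the catalytic subunit of the enzyme that hydroxylates proline in collagen. It had 69.9, 44.4 and 49.3 CPM in SNI+LDN193189, 69.2, 53.6 and 40.1 CPM in SNI and 68.9, 58.6 and 77.4 CPM in sham. A high library was found in every group: replicate 1 in all 3 groups, and sham replicate 3 as well. P4ha1 had a log2 fold change of -0.33 (SE 0.256, 95% interval -0.951 to 0.285, edgeR adjusted p = 0.955) in SNI against sham and -0.33 (SE 0.256, adjusted p = 0.749) in SNI+LDN193189 against sham. Between SNI+LDN193189 and SNI it was 0.0076, and it turned to -0.21 without SNI+LDN193189 replicate 1 and to -0.17 without SNI replicate 3. Sham replicate 3, the library with the most P4ha1, also held the most nerve root markers, and SNI replicate 1, with 69.2 CPM of P4ha1, held the fewest. Their part in the P4ha1 values was not tested.

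Vegfa (ENSMUSG00000023951.17, chromosome 17, 46016993 to 46032369), the growth factor that drives vessel sprouting, had 95.8, 82.6 and 92.5 CPM in SNI+LDN193189, 128, 87.7 and 90.7 CPM in SNI and 115, 78.6 and 102 CPM in sham. Replicate 1 was the highest library in each of the 3 groups, a pattern that 4.98% of all genes tested shared, and the groups overlapped. Vegfa had a log2 fold change of 0.05 (SE 0.192, 95% interval -0.406 to 0.509, edgeR adjusted p = 0.997) in SNI against sham and -0.18 (SE 0.192, 95% interval -0.634 to 0.283, adjusted p = 0.9996) in SNI+LDN193189 against SNI. Without SNI replicate 1 these values turned to -0.14 and 0.02, and SNI against sham also turned without sham replicate 2, to -0.09. Plod2, a collagen lysyl hydroxylase gene of the wider HIF target list, was named after its values were seen. It was likewise highest in replicate 1 of each group, with 21.8, 16.5 and 18.7 CPM in SNI+LDN193189, 23.2, 16.7 and 16.9 CPM in SNI and 23.9, 16.5 and 19.2 CPM in sham.

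The VEGF receptor genes were measured beside Vegfa, and 0 of 5 passed in any comparison. Of these 5 genes 4 had a log2 fold change below 0 in SNI+LDN193189 against SNI, with a median of -0.14, and 3 of them had an unadjusted p under 0.05. Nrp1, a coreceptor that presents VEGF to its main receptor, had 33.5, 31.8 and 35.3 CPM in SNI+LDN193189, 42.0, 42.8 and 37.6 CPM in SNI and 42.1, 42.7 and 43.0 CPM in sham. Each SNI+LDN193189 library lay below all 6 others. The log2 fold change was -0.28 (SE 0.069, edgeR adjusted p = 0.9996) against SNI and -0.35 (SE 0.069, adjusted p = 0.162) against sham. Kdr, the main signalling receptor on endothelium, had 19.7, 15.2 and 13.1 CPM in SNI+LDN193189, 28.7, 27.8 and 20.9 CPM in SNI and 29.5, 21.6 and 29.4 CPM in sham. For Kdr too each SNI+LDN193189 library lay below all 6 others, while SNI and sham overlapped. The log2 fold change was -0.69 (SE 0.189, edgeR adjusted p = 0.9996) against SNI and -0.74 (SE 0.188, adjusted p = 0.425) against sham. Of all genes tested, 5.55% were lower without overlap in SNI+LDN193189 against SNI, and 6.31% against sham. Flt1, a decoy receptor for VEGF, stood at 92.2 ± 6.20 CPM in SNI+LDN193189, 101 ± 6.69 in SNI and 102 ± 4.06 in sham (SD, n = 3 each). Of 8 endothelial markers, among them Flt1, 6 were also below 0 in SNI+LDN193189 against SNI, with a median of -0.14 and 2 at an unadjusted p under 0.05. In SNI+LDN193189 against sham 6 were below 0, with a median of -0.26 and 5 at that level. Cldn5, a tight junction gene of endothelium, was the lowest of the list in both comparisons (-0.39 and -0.66), and was named after its values were seen. It had 22.6, 23.0 and 20.0 CPM in SNI+LDN193189, 33.2, 30.9 and 21.8 CPM in SNI and 33.1, 30.9 and 39.9 CPM in sham. The 2 markers that went the other way were Ly6c1 and Slco1a4. Ly6c1 averaged 44.4 CPM in SNI+LDN193189, 39.1 in SNI and 40.8 in sham, and Slco1a4 averaged 127, 122 and 111 CPM. The list summed to 352 to 390 CPM in SNI+LDN193189, 354 to 397 in SNI and 352 to 430 in sham. Their part in the receptor values was not tested.

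**Figure D4:**
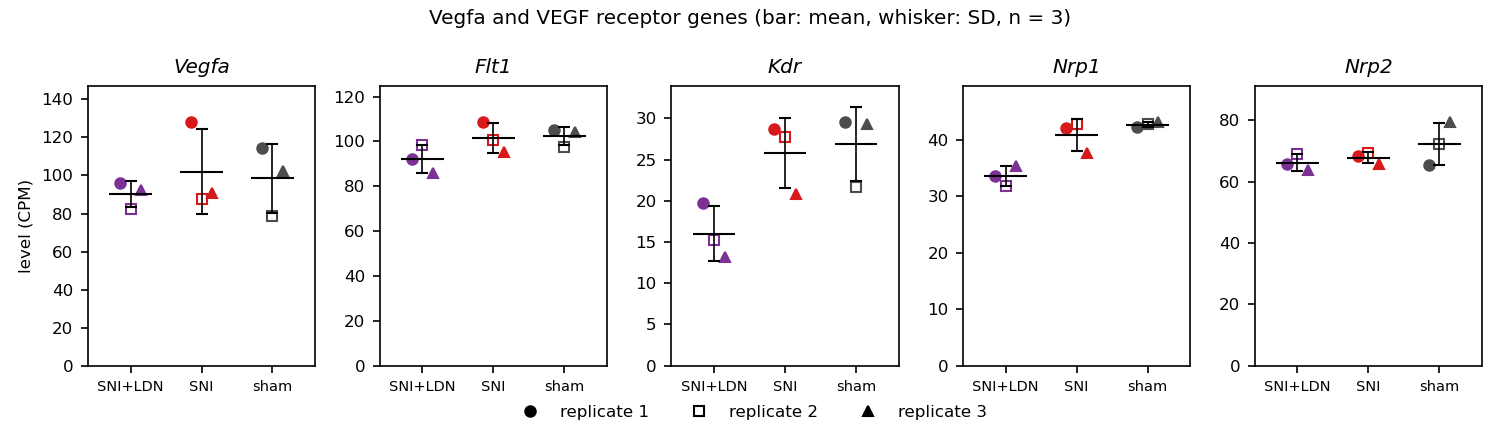
Level of Vegfa and of the 4 receptor or coreceptor genes Flt1, Kdr, Nrp1 and Nrp2 in CPM (vertical axes from 0), in the 3 libraries of SNI+LDN193189, SNI and sham, with the mean as a bar and the SD as a whisker (n = 3 each). Nrp1 and Kdr lie lower in all SNI+LDN193189 libraries, while Vegfa overlaps between the groups.

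Ndrg1 (ENSMUSG00000005125.13, chromosome 15, 66929318 to 66969640), a stress-responsive gene also needed for myelin upkeep by Schwann cells, had 400, 314 and 389 CPM in SNI+LDN193189, 335, 339 and 312 CPM in SNI and 317, 413 and 584 CPM in sham. Sham replicate 3 stood far above the other libraries, and sham replicate 1 lay within the range of SNI. The log2 fold change in SNI against sham was -0.41 (SE 0.224, 95% interval -0.954 to 0.125, edgeR adjusted p = 0.941), and -0.15 without sham replicate 3. All 9 nerve root markers were also below 0 in SNI against sham, with a median of -2.62. Across libraries the markers moved with Ndrg1 in part: the libraries with 1421, 1621 and 4726 CPM of markers held 400, 413 and 584 CPM of Ndrg1. A fit with the marker level as covariate put SNI against sham at 0.05. Marker level and group were linked in these libraries, so that value does not separate them. In SNI+LDN193189 against sham the log2 fold change was -0.25 (SE 0.223, adjusted p = 0.781), and 0.007 without sham replicate 3. SNI+LDN193189 against SNI gave 0.16 (SE 0.223, adjusted p = 0.9996), and -0.07 in the fit with that covariate. SNI+LDN193189 replicate 3 held 389 CPM of Ndrg1 with 551 CPM of the nerve root markers, and sham replicate 1 held 317 CPM with 631. SNI replicate 1, with the fewest markers at 183 CPM, held 335 CPM of Ndrg1. The part of the nerve root in the Ndrg1 values was not tested.

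**Figure D5:**
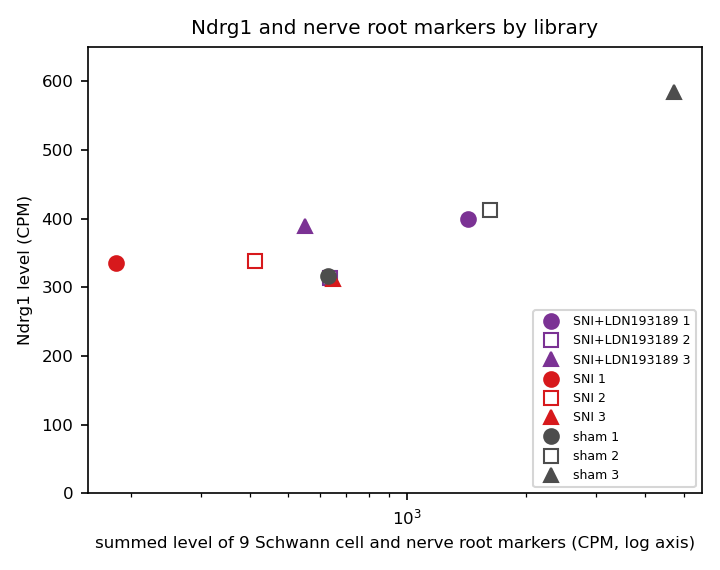
Ndrg1 level in CPM (vertical axis from 0) against the summed level of 9 Schwann cell and nerve root markers in CPM (log axis), 1 point per library of SNI+LDN193189, SNI and sham. The 3 libraries with the most marker RNA hold the most Ndrg1, with sham replicate 3 at 584 CPM.

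Beyond the members, 13 genes of the core HIF machinery were tested: the other HIF subunits, the other hydroxylases, the VHL ligase and coactivators. Between SNI and sham 7 were higher and 6 lower (median log2 fold change 0.003). SNI+LDN193189 had 8 higher and 5 lower when set against SNI (median 0.01), and 7 higher and 6 lower when set against sham (median 0.02), and 0 passed in any comparison. Epas1, the alpha subunit gene of endothelium and astrocytes, had 191, 224 and 206 CPM in SNI+LDN193189, 195, 180 and 196 CPM in SNI and 179, 190 and 201 CPM in sham. These groups overlapped. Hif3a, a subunit that can dampen HIF activity, had 8.28, 15.7 and 23.4 CPM in SNI+LDN193189, 3.89, 3.93 and 12.7 CPM in SNI and 3.57, 9.09 and 6.40 CPM in sham. For SNI+LDN193189 its log2 fold change was 1.20 (SE 0.655, edgeR adjusted p = 0.9996) against SNI and 1.31 (SE 0.658, adjusted p = 0.639) against sham. Each was the largest of this list in its comparison. An SNI library (12.7 CPM) and a sham library (9.09 CPM) lay inside the range of SNI+LDN193189. Arnt2, a partner subunit of neurons, stood at 38.7 ± 0.887 CPM in SNI+LDN193189, 41.9 ± 0.497 in SNI and 41.6 ± 4.66 in sham (SD, n = 3 each). For Arnt2 SNI+LDN193189 lay below SNI without overlap, beside 5.55% of all genes, and overlapped with sham. Against SNI the log2 fold change was -0.11 (SE 0.075, edgeR adjusted p = 0.9996).

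Other HIF target genes, 30 in all, were split in direction. Adm and Epo were listed at 0 in all libraries and 27 genes were tested, of which 0 passed. A 0 in all libraries, as also listed for Aqp4 and P2ry12, cannot be told apart from a gene that was not counted. Between SNI and sham 11 were higher and 16 lower (median -0.07). In SNI+LDN193189 18 were higher and 9 lower than in SNI (median 0.05), and 11 were higher and 16 lower than in sham (median -0.02). Slc2a1, the glucose transporter of the blood-brain barrier, had 136, 136 and 169 CPM in SNI+LDN193189, 119, 109 and 121 CPM in SNI and 103, 125 and 123 CPM in sham. It did not overlap with SNI or with sham, and its log2 fold change was 0.34 (SE 0.098, edgeR adjusted p = 0.9996) against SNI and 0.33 (SE 0.098, adjusted p = 0.457) against sham. Higher without overlap in SNI+LDN193189 were 5.71% of all genes against SNI and 6.81% against sham. Fam162a, a mitochondrial protein gene, had 32.0, 29.2 and 28.5 CPM in SNI+LDN193189, 32.0, 29.6 and 29.3 CPM in SNI and 25.6, 25.6 and 26.5 CPM in sham. Both injured groups lay above sham without overlap, beside 4.45% of all genes for SNI and 6.81% for SNI+LDN193189. Fam162a differed by 0.23 on the log2 scale in SNI against sham (SE 0.074, adjusted p = 0.927) and by 0.21 in SNI+LDN193189 against sham (SE 0.074, adjusted p = 0.531). Pfkfb4, a regulator of glycolysis, stood at 17.8 ± 1.58 CPM in SNI+LDN193189, 22.0 ± 2.15 in SNI and 20.6 ± 2.83 in sham (SD, n = 3 each). For Pfkfb4 SNI+LDN193189 lay below SNI without overlap, beside 5.55% of all genes, and overlapped with sham. Against SNI the log2 fold change was -0.30 (SE 0.112, edgeR adjusted p = 0.9996).

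Of 20 tested paralogs of the members 0 passed in any comparison. Their median was 0.0057 between SNI and sham, with 11 genes higher. For SNI+LDN193189 it was 0.016 against SNI, with 13 higher, and 0.0042 against sham, with 10 higher. Vegfb, a relative of Vegfa with little effect on sprouting, averaged 32.6 ± 1.67 CPM in SNI+LDN193189, 29.2 ± 2.81 in SNI and 27.7 ± 0.615 in sham. Vegfc, a growth factor of lymphatic vessels, averaged 2.58 ± 0.148 CPM in SNI+LDN193189, 2.87 ± 0.395 in SNI and 3.64 ± 0.510 in sham (SD, n = 3 each). In both genes SNI+LDN193189 and sham did not overlap, with edgeR adjusted p values of 0.515 and 0.547. Vegfb was higher than in sham, beside 6.81% of all genes without overlap, and Vegfc lower, beside 6.31%. Mxd4, a relative of Mxi1, averaged 78.1 ± 10.9 CPM in SNI+LDN193189, 67.1 ± 4.69 in SNI and 76.4 ± 4.79 in sham. Of the MAX network genes, which act with or against Mxi1, 0 of 5 tested passed. Mycl was listed at 0 in all libraries, so it too may not have been counted. Myc averaged 3.70 ± 0.339 CPM in SNI+LDN193189, 3.50 ± 0.189 in SNI and 4.51 ± 1.05 in sham. Mycn averaged 1.71 ± 0.423 CPM in SNI+LDN193189, 2.15 ± 0.413 in SNI and 2.43 ± 0.335 in sham. Max averaged 77.4 ± 2.82 CPM in SNI+LDN193189, 76.1 ± 4.00 in SNI and 80.6 ± 4.37 in sham (SD, n = 3 each).

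For the 3 members with the smallest joint p, the genes with the nearest pattern over the 9 libraries were sought among 15186 genes with a mean of at least 1 CPM, by the root-mean-square difference of standardised log2 CPM. Nearest to Higd1a were Rtl8b (0.218), Gm10814 (0.218) and Arl1 (0.308). Kdm3a was nearest to Cpeb2 (0.242), Scamp2 (0.354) and Srsf2 (0.368). For Hif1a they were Opalin (0.363), a gene of myelinating oligodendrocytes, Hoxd9 (0.407) and Sorcs2 (0.466). Opalin had 70.2, 79.2 and 61.1 CPM in SNI+LDN193189, 82.0, 87.1 and 93.6 CPM in SNI and 64.7, 66.1 and 69.5 CPM in sham. As for Hif1a, all SNI libraries were above the 6 others, which follows from how Opalin was picked and adds no evidence. Of the 10 oligodendrocyte markers, among them Opalin, 9 were above 0 in SNI against sham. Their median was 0.11, and Opalin was the highest at 0.39. All 7 microglial markers tested were above 0 in that comparison, with a median of 0.20 and 5 at an unadjusted p under 0.05, and they summed to 262 to 279 CPM in SNI+LDN193189, 246 to 270 in SNI and 207 to 241 in sham. In SNI+LDN193189 against SNI, where Hif1a lay lower, 5 of the 7 microglial markers were above 0, with a median of 0.04, and 5 of the 10 oligodendrocyte markers, with a median of 0.01. The part of either list in the Hif1a values was not tested.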

How the data were processed

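Poly(A)-selected, strand-marked RNA libraries were read as pairs, per the labels' protocols, whose text speaks of cell lines. The deposited counts are whole-number counts per gene symbol made by the authors on build mm10, per the submitters' processing notes. Which aligner, counting tool and annotation served is not given in the sources used here. Of the counts above 0 in each library, 70.7 to 71.8% were even numbers. Whether 1 count stands for a read or for a pair of reads is not given, and the reason for the even numbers was not tested. FPKM values, as deposited, equalled the count divided by library total and a fixed gene length for all 26285 genes with a count (relative tolerance 1e-09). Columns lettered L, N and S were read as SNI+LDN193189, SNI and sham. The injury gene Sprr1a had 6.62 to 23.0 CPM in the columns read as SNI and 0.161 to 0.235 in those read as sham.

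The main test was edgeR 4.0.16 in R 4.3.3: filterByExpr, TMM factors of 0.984 to 1.02, 1 robust quasi-likelihood fit of group means over 9 libraries with 6 residual degrees of freedom, and Benjamini-Hochberg adjustment over 18245 genes, called under 0.05. The fit was tested on simulated data. Standard errors are the log2 fold change over the root of F, and 95% intervals use the moderated degrees of freedom. Members and lists were chosen with earlier results of these data known. Named are all members, of each list the genes called or else the 3 with the smallest joint p, and the 3 genes nearest to 3 members. Exceptions are marked where they stand, apart from Sprr1a, genes that overlap members, and genes listed at 0. Ly6c1 and Slco1a4 were named because they went against the rest of their list. Gene places are from GENCODE M21 (GRCm38). Alternatives used DESeq2 1.42.0, limma 3.58.1, log2 FPKM with pseudocounts of 0.1 and 1, other scalings and filters, and single libraries left out. Python 3.11.15 and pandas 2.3.3 made the tables.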

Additional observations from a re-analysis of the deposited data

How the results depend on the processing

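In none of the 23 alternatives did a member pass, the lowest adjusted p being 0.158, and 20 of the 30 member comparisons kept their direction in every alternative. The cause of the differences below was not tested. The count of all genes called moved with DESeq2 to 25 calls in SNI against sham, 7 when SNI+LDN193189 was set against SNI, 64 when it was set against sham, and 69 in the joint test. With no filter the last 3 of these had 2, 30 and 25 calls. The nerve root covariate gave 13, 2, 12 and 18 in the same 4 tests, and 0 members in each. SNI+LDN193189 against SNI had 2 calls with limma-voom, 3 with the compared groups alone, and 0 with non-robust fitting and with each of the 3 fits on log2 FPKM. SNI+LDN193189 against sham had 1 with log2(FPKM + 0.1), log2(FPKM + 1), a mean of at least 1 CPM and non-robust fitting, and the joint test had 0 with log2(FPKM + 1) and with unfiltered log2(FPKM + 0.1). Leaving out single libraries gave 0 to 38 calls in the first of these tests (38 without sham replicate 1), 0 to 2 in the second, 1 to 17 in the third (17 without SNI replicate 3) and 1 to 19 in the joint test (19 without sham replicate 1). The members' median in SNI against sham turned to 0.0012 with the nerve root covariate and ran from -0.075 to 0.011 with single libraries left out. With that covariate the log2 fold change in SNI against sham turned to -0.16 for Vegfa, 0.046 for Ndrg1, 0.016 for Kdm3a and 0.018 for Higd1a, and in SNI+LDN193189 against SNI to -0.073 for Ndrg1. Upper quartile scaling turned Higd1a in SNI against sham to 0.0027 and P4ha1 in SNI+LDN193189 against SNI to -0.00024, which was -0.037 with limma-voom. Single libraries left out gave ranges across 0 in SNI against sham for Vegfa (-0.143 to 0.173), Egln3 (-0.058 to 0.042), Kdm3a (-0.110 to 0.021) and Higd1a (-0.034 to 0.022). The same held in SNI+LDN193189 against SNI for Vegfa (-0.272 to 0.019) and P4ha1 (-0.212 to 0.219), and in SNI+LDN193189 against sham for Mxi1 (-0.017 to 0.086) and Ndrg1 (-0.442 to 0.0071).

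Same-numbered libraries correlated between -0.109 and 0.144 in their deviations from group means, and in 7 of 18 pairs of a library with another group the best match had its own number, so the numbers were not taken to pair the samples. With a replicate block 0 genes were called in SNI+LDN193189 against SNI and 5 in the joint test, and 0 members in each.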

Other observations

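Of 15 glucocorticoid response genes 0 passed with edgeR in any comparison. All 15 had a log2 fold change above 0 in SNI+LDN193189 against SNI, with a median of 0.46 and 7 at an unadjusted p under 0.05. Against sham 13 were above 0 in SNI+LDN193189, with a median of 0.27, and Cdkn1a (-0.26) and Sult1a1 (-0.37), named after their values were seen, were below 0. The list summed to 1155, 1267 and 1742 CPM in SNI+LDN193189, 1017, 887 and 1022 CPM in SNI and 887, 1238 and 1003 CPM in sham, so SNI+LDN193189 replicate 3 was highest and sham replicate 2 reached into the same range. Of the 10 hypoxia and HIF target genes, 3 were highest in SNI+LDN193189 replicate 3, namely Bnip3 (153 CPM), Mxi1 (60.9 CPM) and Kdm3a (48.5 CPM), and the other 7 were highest in other libraries. The share of all genes highest in that library is not given here, so the 3 have no background to be read against. Ddit4, a stress gene on the HIF target list that was named after its values were seen, had 49.8, 47.0 and 72.0 CPM in SNI+LDN193189, 54.3, 40.0 and 43.3 CPM in SNI and 39.8, 58.6 and 56.1 CPM in sham. In SNI+LDN193189 the genes named by the rule stood at 202 ± 20.7 CPM for Tsc22d3, 48.0 ± 4.74 for Per1 and 40.6 ± 8.89 for Fkbp5, against 158 ± 10.3, 30.9 ± 5.94 and 29.5 ± 0.408 CPM in SNI (SD, n = 3 each). The part of these genes in the members' values was not tested.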
